A study of Mus musculus with 2 samples.

Results

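The genes described here are the mouse Wnt ligands, the Frizzled receptors and the co-receptors that act beside Frizzleds, chosen by name: 19 ligands, 10 Frizzleds and the 5 genes Lrp5, Lrp6, Ror1, Ror2 and Ryk. All 34 had a probe set that names them alone, out of 19938 genes with such a probe set on the array. Both samples were cells of healing wounds in skin scar tissue from mice labelled as TCF reporter mice, 1 week after wounding. One sample held cells labelled B-Gal negative and the other cells labelled B-Gal positive, read here as cells without and with beta-galactosidase made by the reporter. Both groups share the reporter genotype and the wound. The series' design text speaks both of cells and of dissected wound tissue that was crushed for RNA extraction, and how the crushed tissue relates to 2 separate groups of cells is not given there. The sources used here give neither the promoter of the reporter nor the way the cells were separated, the age of the mice or how many mice stand behind an array. No probe set of the annotation used here names lacZ, so a check of the labels by the reporter's own RNA was not made. Whether the cells' own beta-galactosidase, apart from the reporter, contributed to the labels was not tested.

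Wnts are secreted, lipid-carrying proteins that signal over short distances. They bind the outer domain of Frizzled receptors. Together with Lrp5 or Lrp6 this binding stabilises beta-catenin, which enters the nucleus and activates genes through TCF and LEF factors, the step that a TCF reporter reads. Wnts can also signal without beta-catenin, through Frizzleds with Ror1, Ror2 or Ryk, in pathways that steer cell polarity and movement. In skin, Wnt signals are known for their part in hair follicle growth, in dermal fibroblasts and in wound repair.

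There was 1 array per group and no replicate, so no difference below has an error or a test, the number of arrays limits the precision, and the values describe these 2 samples. Values are given on the log2 scale as deposited, and a difference is the B-Gal positive value minus the B-Gal negative value. A floor of 5.59 was set at the 95th percentile of 1194 smell and pheromone receptor genes (olfactory and vomeronasal), taken as a measure of background. Values at or under the floor have no order. A fold against such a value was computed against the floor and is a lower bound, written as "at least". A gene was counted as at least 2-fold different when its log2 difference reached 1 in size and at least 1 array lay above the floor.

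Most receptor genes of the family were counted as lower in B-Gal positive cells, and most ligand genes were not. Of the 34 genes, 12 were at least 2-fold lower and 1, Lrp6, was at least 2-fold higher. The lower ones were 3 of 19 ligands (Wnt5a, Wnt2 and Wnt2b), 6 of 10 Frizzleds (Fzd1, Fzd2, Fzd3, Fzd4, Fzd6 and Fzd8) and 3 of 5 co-receptors (Ryk, Ror2 and Ror1). On the B-Gal negative array 14 of 19 ligands were above the floor, beside 10 of 10 Frizzleds and 5 of 5 co-receptors. Most ligands lay under the floor there or less than 2-fold above it, where a 2-fold fall cannot be measured. The counts of ligands and receptors therefore cannot be compared apart from signal level. Over all 19938 genes the same rule counted 8.81% as lower and 6.90% as higher. Over the 13784 genes above the floor on at least 1 array, without those smell and pheromone receptors, the shares were 12.7% lower and 9.92% higher. The share of the 34 genes that were lower was 35.3%. A difference of at least 4-fold on the lower side was counted for 9 of the 34 and for 3.96% of all genes. The median difference was -0.21 over the 34 genes, against 0.12 over all genes. It was 0.13 over the ligands, -1.59 over the Frizzleds and -2.02 over the co-receptors. With values under the floor set to it, these medians were -0.18 over the 34 genes, 0.0 over all genes and over the ligands, -1.17 over the Frizzleds and -2.02 over the co-receptors.

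**Figure D1:**
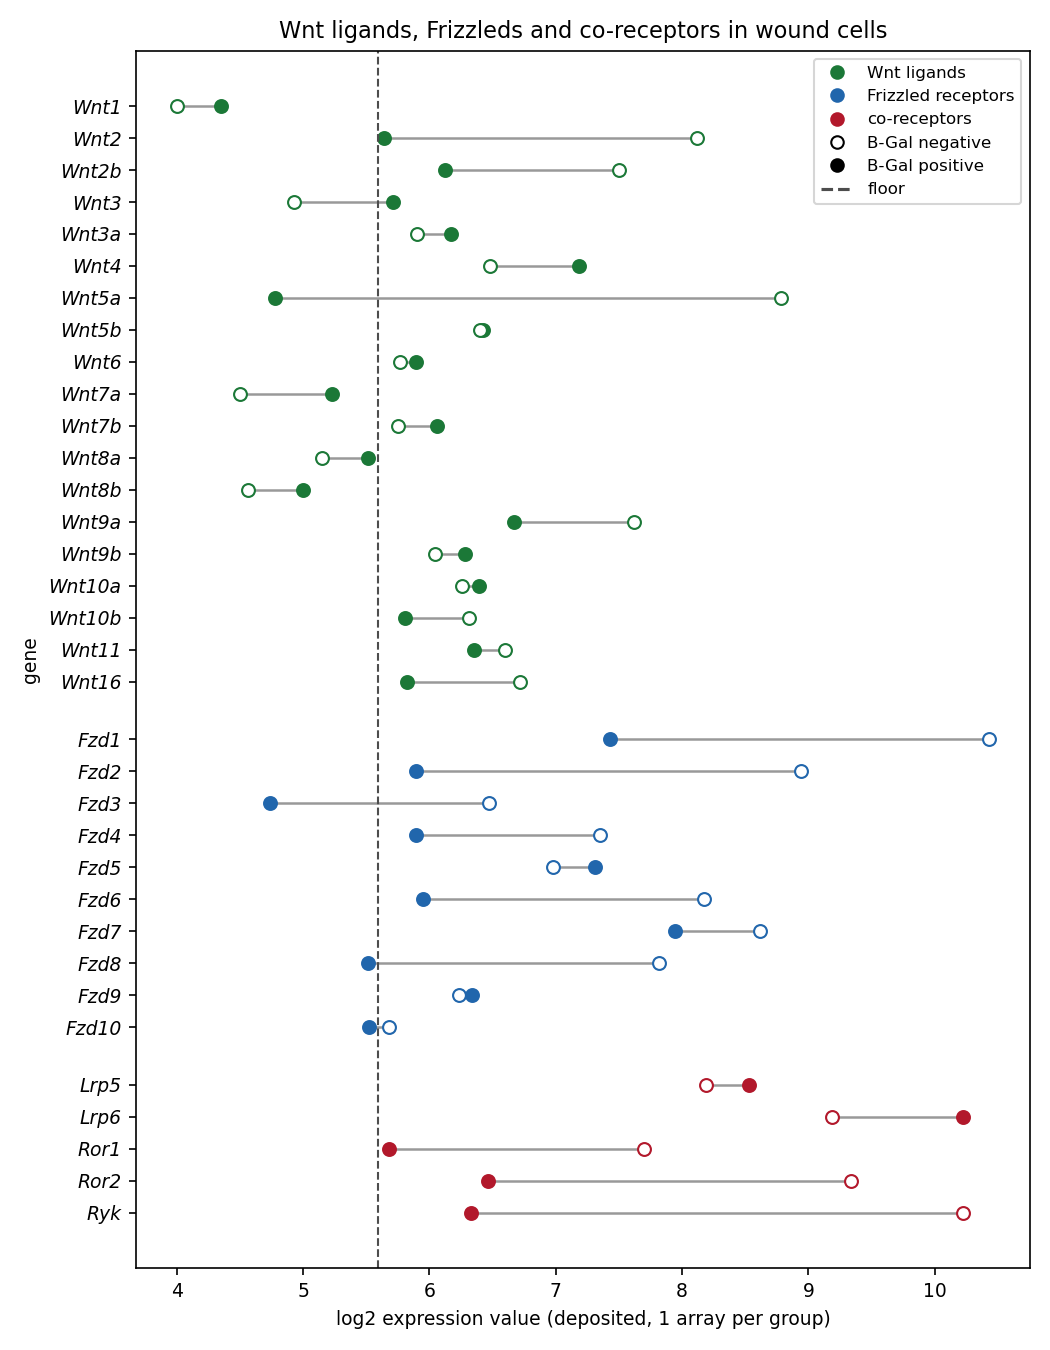
Log2 expression values of the 34 genes (x axis) by gene (y axis), with open circles for the B-Gal negative array, filled circles for the B-Gal positive array, colours for the 3 gene classes and a dashed line at the floor of 5.59. Long bars to the left of the open circles mark Wnt5a, Wnt2, Ryk, Ror2, Ror1 and 6 Frizzleds, while most ligands have both circles close together near the floor, and Lrp6 has its filled circle to the right.

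Promoter windows of RefSeq (build GRCm38.p6) are shown for the gene of each class with the most negative difference among those that have such a window, Wnt2, Fzd1 and Ryk, and for Ror1, the other lower gene whose window holds a TCF core. They cover the 250 bases before the annotated transcript start, 5′ to 3′ on the gene's strand. Capitals mark TCAAAG, the reverse complement of CTTTGA, a core of the sites that TCF and LEF factors bind.
Wnt2 promoter, chr6:18030446-18030695, strand -: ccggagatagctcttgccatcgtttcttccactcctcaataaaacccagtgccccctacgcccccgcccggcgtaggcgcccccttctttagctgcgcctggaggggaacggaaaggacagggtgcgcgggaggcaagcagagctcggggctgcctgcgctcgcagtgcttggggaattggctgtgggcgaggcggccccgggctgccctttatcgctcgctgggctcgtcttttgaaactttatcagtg
Fzd1 promoter, chr5:4758217-4758466, strand -: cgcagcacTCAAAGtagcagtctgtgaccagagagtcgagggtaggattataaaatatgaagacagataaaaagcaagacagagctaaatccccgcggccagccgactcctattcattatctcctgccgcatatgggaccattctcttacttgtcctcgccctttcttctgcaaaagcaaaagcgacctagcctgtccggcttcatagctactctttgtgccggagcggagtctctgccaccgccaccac
Ryk promoter, chr9:102834670-102834919, strand +: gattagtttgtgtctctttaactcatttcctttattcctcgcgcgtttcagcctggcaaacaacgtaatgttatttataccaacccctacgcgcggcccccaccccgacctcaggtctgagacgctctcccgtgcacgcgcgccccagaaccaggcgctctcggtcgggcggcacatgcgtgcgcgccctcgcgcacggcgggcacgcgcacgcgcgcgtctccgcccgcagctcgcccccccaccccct
Ror1 promoter, chr4:100095541-100095790, strand +: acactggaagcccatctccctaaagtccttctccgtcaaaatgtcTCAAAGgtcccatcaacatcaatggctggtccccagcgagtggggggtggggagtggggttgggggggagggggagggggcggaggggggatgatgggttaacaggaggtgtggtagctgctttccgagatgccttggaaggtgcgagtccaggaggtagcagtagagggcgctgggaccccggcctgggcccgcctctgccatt
Both strands were searched for CTTTGA and for the longer CTTTGAT, which contains it. The core began 242 bases before the start in Fzd1 and 205 bases before it in Ror1, and the letters were not in the windows of Wnt2 and Ryk. RefSeq windows were at hand for 24 of the 34 genes (27 windows), and 4 of the 27 held CTTTGA (14.8%). The share was 13.8% over all 32851 windows and 12.7% over the windows of protein-coding genes. Of the 12 lower genes 7 had a window, and 2 of those 7 held CTTTGA. The longer CTTTGAT was in 2 of the 27 windows, 1 of Wnt11 and 1 of Wnt5b. It was in 3.21% of all windows and in 2.82% of those of protein-coding genes. The windows of these genes were rich in CpG: the median was 24 CpG and 71.6% G and C, against 10 CpG and 55.6% over 21263 windows of protein-coding genes. Among the lower genes with a window the medians were 24 CpG and 65.2%. A match is a run of letters and not a measured binding site.

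Among the ligands, Wnt5a had the most negative difference. Wnt5a, a ligand known mainly for signalling without beta-catenin through Ror receptors, had a log2 value of 8.78 in B-Gal negative cells and 4.78, under the floor, in B-Gal positive cells. It was at least 9.14-fold lower. Wnt2, a ligand of the beta-catenin branch, had 8.12 and 5.64, a difference of -2.49, and was 5.60-fold lower, with its B-Gal positive value just above the floor. Its close relative Wnt2b had 7.50 and 6.12 and was 2.60-fold lower. All 3 ligands were well above the floor on the B-Gal negative array and nearer to it, or under it, on the other. The counting rule favours such a pattern, so it is not a separate result.

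The next ligands in order missed the 2-fold threshold. Wnt9a had log2 values of 7.62 and 6.67, a difference of -0.95, and Wnt16 had 6.72 and 5.82, a difference of -0.90. These lie just outside the threshold, and Wnt2b, at -1.38, is the ligand just inside it. Wnt9a would be counted as lower after a loess correction, with which its difference was -1.0. With the arrays centred on the smell and pheromone receptors, a setting added after the data were seen, Wnt9a was at -1.24 and Wnt16 at -1.18, and both would be counted as lower. Wnt10b, a ligand of the beta-catenin branch that is known to favour hair follicle growth, had 6.31 and 5.81, and Wnt11, known for signalling without beta-catenin, had 6.60 and 6.35. Neither difference reached 2-fold.

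In B-Gal positive cells no ligand reached 2-fold on the higher side. Wnt4, a ligand known from epidermis and from organ development, had 6.48 and 7.18, a difference of 0.71, on the probe set used. Its other probe set had 5.77 and 5.81, a difference of 0.04, so the probe sets of Wnt4 did not give the same size. Wnt3, a ligand of the beta-catenin branch, had 4.93, under the floor, and 5.71, and was at least 1.09-fold higher. Wnt7b, known from epidermis and blood vessel development, had 5.75 and 6.06. Its difference of 0.31 was 0.03 after centring on the smell and pheromone receptors.

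The ligands Wnt3a, Wnt5b, Wnt6, Wnt9b and Wnt10a had differences between 0.03 and 0.27. Wnt3a, often used as the model ligand of the beta-catenin branch, had 5.90 and 6.17, and Wnt10a, a ligand of skin appendages, had 6.26 and 6.39. Wnt5b had 6.40 and 6.42, Wnt6 5.77 and 5.89, and Wnt9b 6.04 and 6.28. The sign of these 5 differences turns when the arrays are centred on the smell and pheromone receptors behind the floor, whose own median difference was 0.28, so no direction is given for them. Wnt1, Wnt7a, Wnt8a and Wnt8b were under the floor on both arrays, with log2 values from 4.0 to 5.51, and have no order.

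The Frizzleds, the receptors that bind Wnts and pass the signal to Dishevelled proteins inside the cell, all lay above the floor in B-Gal negative cells, and 7 of 10 lay above it in B-Gal positive cells. Fzd2 had log2 values of 8.94 and 5.89, a difference of -3.05, and was 8.30-fold lower. Its B-Gal positive value was near the floor, though above it. Fzd1 had 10.43 and 7.43, a difference of -3.0, and was 7.99-fold lower while still above the floor on the B-Gal positive array. Of all genes, 1.67% had a difference as negative as that of Fzd2 and 1.75% one as negative as that of Fzd1.

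Fzd8, Fzd6, Fzd4 and Fzd3 also had B-Gal positive values near or under the floor. Fzd8 had 7.82 and 5.51, under the floor, and was at least 4.69-fold lower. Fzd6, known for its part in orienting hair follicles in skin, had 8.17 and 5.95 and was 4.66-fold lower. Fzd4, a receptor of blood vessel endothelium that also binds the non-Wnt ligand norrin, had 7.35 and 5.89 and was 2.75-fold lower. Fzd3, known for guiding axons and for planar polarity, had 6.47 and 4.74, under the floor. Its deposited difference was -1.73, but against the floor it was at least 1.84-fold lower, so its place among the lower genes rests on a value under the floor. When such values were set to the floor, 11 of the 34 genes were at least 2-fold lower, and Fzd3 was not among them.

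The remaining 4 Frizzleds did not reach 2-fold. Fzd7, a close relative of Fzd1 and Fzd2, had 8.62 and 7.94, a difference of -0.68. Fzd5 had 6.98 and 7.31, a difference of 0.33, which was 0.05 after centring on the smell and pheromone receptors. Fzd9 had 6.23 and 6.34, a difference of 0.12, and its sign turns under the same centring. Fzd10 had 5.68 and 5.52, under the floor, and was at least 1.07-fold lower.

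Lrp5 and Lrp6 are the co-receptors of the beta-catenin branch. Lrp6 had log2 values of 9.19 and 10.22, a difference of 1.03, and was 2.04-fold higher in B-Gal positive cells, just inside the threshold. It was under 2-fold after loess, with a difference of 0.98, after quantile normalization, with 0.93, with 32 added to all linear values, with 0.99, and after centring on the smell and pheromone receptors, with 0.74. Its value was higher in B-Gal positive cells under each of these. Lrp5 had 8.19 and 8.53, a difference of 0.34, which was 0.05 after that centring.

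The co-receptors of signalling without beta-catenin were all lower. Ryk, a receptor with an inactive kinase domain that binds Wnts, had 10.22 and 6.33, a difference of -3.89, and was 14.8-fold lower. As few as 103 of the 19938 genes (0.517%) had a difference as negative. Ror2, a receptor kinase-like protein that binds Wnt5a, had 9.34 and 6.46, a difference of -2.87, and was 7.32-fold lower. Ror1, its relative, had 7.70 and 5.68, a difference of -2.02, and was 4.04-fold lower, just above the floor on the B-Gal positive array. Wnt5a and both Ror genes, a known ligand and receptor set, thus lay on the same side. That side is not particular to them, since 12 of the 34 genes were counted on it. Wnt5b, the close relative of Wnt5a, had a difference of 0.03.

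**Figure D2:**
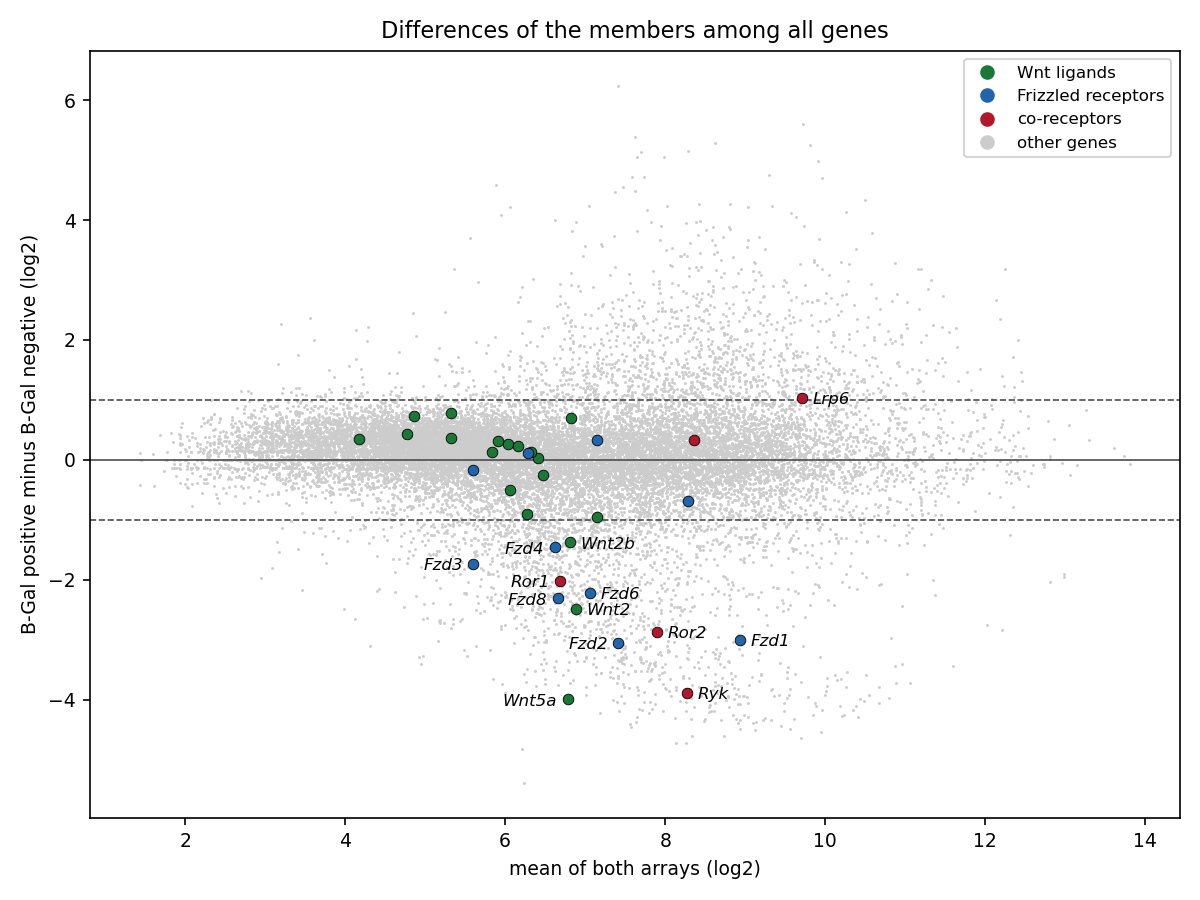
Difference between the arrays (y axis, log2, B-Gal positive minus B-Gal negative) against the mean of both arrays (x axis, log2) for all 19938 genes in grey and the 34 genes in colour, with dashed lines at 2-fold. The 12 named genes under the lower dashed line run from Wnt2b at -1.38 to Wnt5a at -3.99 (plotted as deposited, with its B-Gal positive value under the floor), Lrp6 lies at the upper line, and most ligands lie at means near 6 with differences near 0.

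Close relatives within the family did not always share a difference. With the values of Wnt5a and Fzd8 under the floor set to it, the differences of Wnt5a and Wnt5b were at least 3.22 apart on the log2 scale and those of Fzd8 and Fzd5 at least 2.56. Fzd7 was 2.32 from Fzd1 and 2.37 from Fzd2, and Fzd4 was 1.58 from Fzd9. Fzd1 and Fzd2 were 0.05 apart, Lrp5 and Lrp6 0.69, Ror1 and Ror2 0.86, and Wnt2 and Wnt2b 1.11. The groups of relatives are those of textbook families, and whether probes of one gene also bind the RNA of a relative was not tested. In the RefSeq gene order, 4 pairs of ligand genes sit side by side with 0 other protein-coding genes between them: Wnt6 with Wnt10a, Wnt3a with Wnt9a, Wnt3 with Wnt9b, and Wnt1 with Wnt10b. Both genes of the first pair had a difference of 0.13, and those of the second 0.27 and -0.95. In the third pair Wnt3 was under the floor on the B-Gal negative array and Wnt9b had a difference of 0.23, and in the last Wnt1 was under the floor on both arrays and Wnt10b had a difference of -0.50. None of these 8 genes was counted as at least 2-fold different.

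Other genes of the pathway were counted in the same way from lists of 63 genes in all, of which 62 were measured and Tcf7 was not. At least 2-fold lower were 19 of the 62 (30.6%), and 0 were at least 2-fold higher. Their median difference was -0.30, beside -0.21 for the ligands, Frizzleds and co-receptors and 0.12 for all genes. Wls, the carrier that brings Wnts to the cell surface, was the single lower gene of 3 that handle the Wnt lipid and transport, with 10.76 and 9.52 (2.36-fold). Among R-spondins, their receptors and the ubiquitin ligases that remove Frizzleds from the membrane, 2 of 9 were lower. These were the R-spondin receptors Lgr4, with 8.13 and 4.62 (at least 5.85-fold), and Lgr5, with 6.99 and 5.03 (at least 2.64-fold).

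Secreted antagonists and their receptors were lower for 7 of 16. The Frizzled-like decoys Sfrp4, with 10.50 and 6.73 (13.7-fold), and Sfrp1, with 8.32 and 5.35 (at least 6.65-fold), were among them, with Sfrp2 (12.67 and 9.26) and Dkk3, a Dickkopf-related secreted protein (9.76 and 6.22, 11.6-fold). Partners of Frizzleds other than Wnts were lower for 3 of 6. Adgra2 and Reck, which together let cells sense Wnt7 ligands, had 9.62 and 6.45 (8.99-fold) and 8.49 and 5.63 (7.24-fold), and Tspan12, a partner of Fzd4 in norrin signalling, had 8.08 and 5.36 (at least 5.62-fold). Genes of planar cell polarity and signalling without beta-catenin were lower for 4 of 11: Ptk7, a Wnt co-receptor without kinase activity (8.78 and 5.94, 7.13-fold), Prickle1 (8.46 and 6.30, 4.47-fold), Vangl1 (7.54 and 5.49, at least 3.88-fold) and Prickle2 (7.21 and 5.25, at least 3.08-fold).

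Dishevelled proteins and the destruction complex relay the signal inside the cell. Of their 10 genes 1 was lower, beside 8.81% of all genes: Axin2, a scaffold protein that is also a common target of the beta-catenin branch, with 6.88 and 5.86 (2.03-fold). It lies just inside the threshold, and it was outside with the arrays centred on their medians and with 32 added to all linear values, where its difference was -0.74. Of 3 measured TCF and LEF factors 1 was lower, Tcf7l1, with 7.43 and 5.86 (2.98-fold). Of 9 feedback targets 2 were lower, Lgr5 and Axin2, which are also in lists above, and 0 higher.

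**Figure D3:**
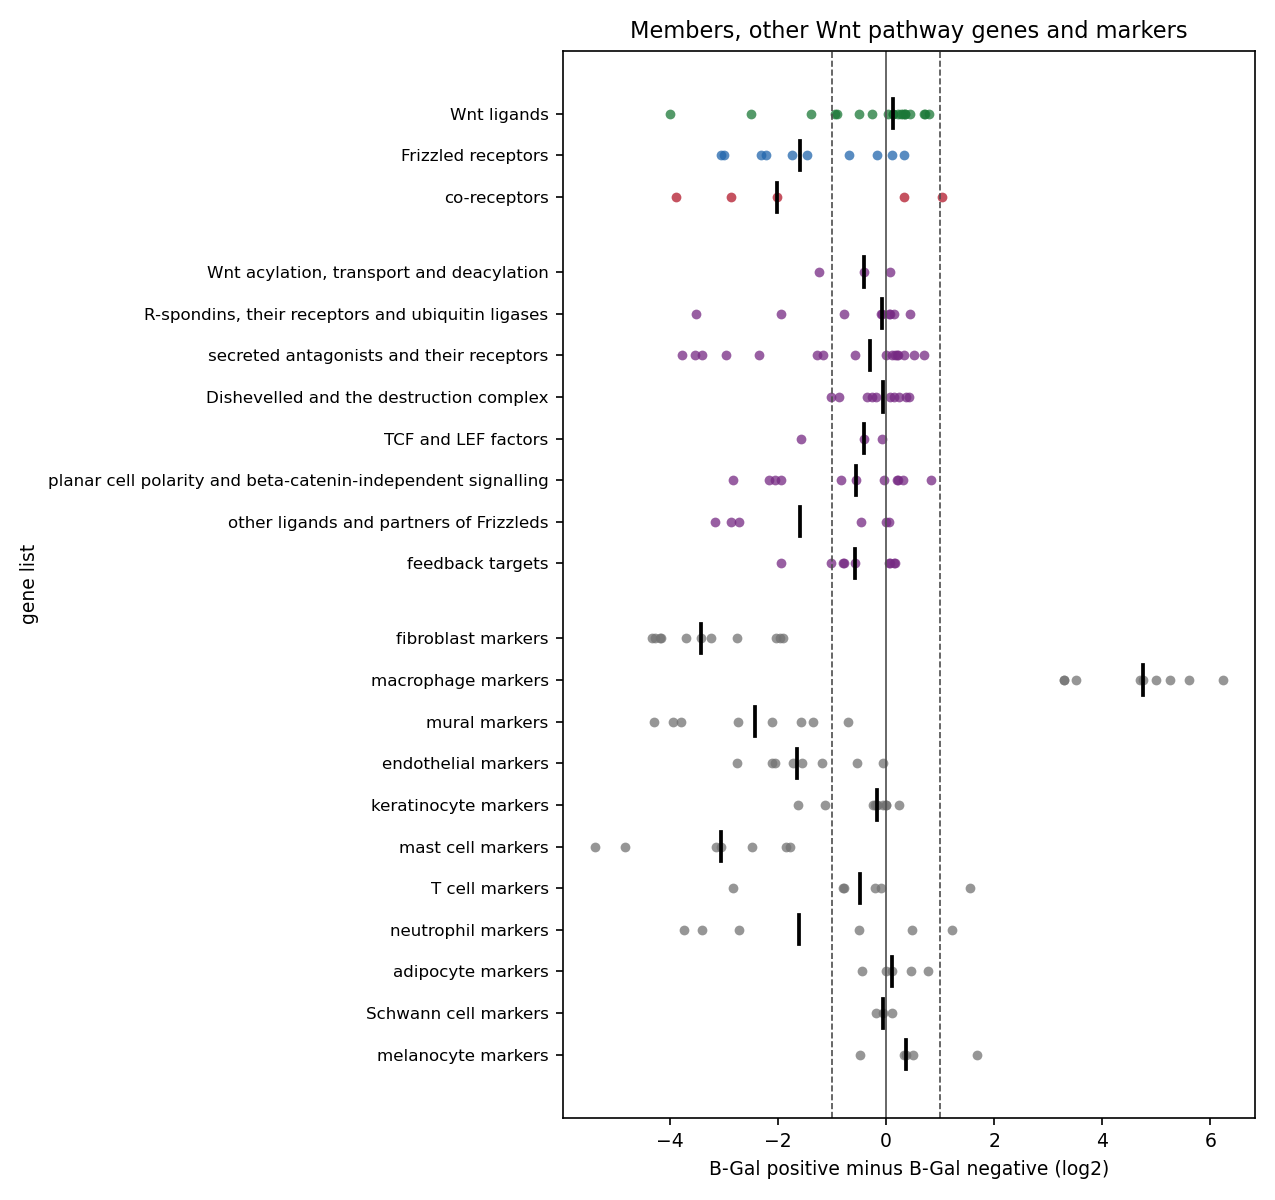
Difference between the arrays (x axis, log2, B-Gal positive minus B-Gal negative) for each measured gene of the lists on the y axis, with 1 point per gene, a black tick at each list's median and dashed lines at 2-fold. Frizzled and co-receptor medians lie at -1.59 and -2.02, the ligand median at 0.13, fibroblast markers at -3.43 and macrophage markers at 4.75.

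The arrays also differed in markers of cell types. In such samples, fewer cells of a type and less RNA per cell cannot be told apart. Summed on the linear scale, 11 fibroblast markers came to 87627 in B-Gal negative and 15510 in B-Gal positive cells, and 11 of 11 were at least 2-fold lower. Leading values were those of Pdgfra (11.78 and 7.45), Dpt (12.35 and 8.07) and Lum (12.44 and 8.26). Of 8 mural cell markers 7 were lower, with sums of 9914 and 885, among them Pdgfrb, Rgs5 and Acta2. Of 8 endothelial markers 6 were lower, with sums of 2198 and 729, among them Tek, Emcn and Cdh5, and of 7 mast cell markers 7 were lower, with sums of 2878 and 346, among them Cpa3, Mcpt4 and Hdc. All markers of the fibroblast, mural and endothelial lists were above the floor on both arrays.

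Macrophage markers lay on the other side. Of 10 in the list 9 were measured and 9 of 9 were higher, with sums of 1941 and 38700, led by Cd163 (4.29, under the floor, and 10.54), Mrc1 (6.92 and 12.52) and C1qc (7.18 and 12.43). Keratinocyte markers, which define the epidermis, had sums of 694 and 501, with 2 of 10 lower, Krt5 (7.11 and 5.48) and Krt14 (7.06 and 5.94), and Krt1, Krt6a, Krt17 and Epcam under the floor on both arrays. Krt10, with 6.29 and 6.05, did not reach 2-fold. Neutrophil markers were lower for 3 of 6 (Cxcr2, S100a9 and S100a8) and higher for 1 (Mmp8, named after its value was seen, at 6.23 in B-Gal positive cells and under the floor in the others), with sums of 1545 and 689, and T cell markers were lower for 1 of 6 (Cd3g) and higher for 1 (Cd4), with sums of 553 and 403 and Cd2 within 2-fold. Adipocyte markers (486 and 442, with Plin1, Fabp4 and Cidec within 2-fold, and Adipoq and Lep under the floor on both arrays) and Schwann cell markers (230 and 223, with Ngfr and Sox10 within 2-fold, and S100b under it on both) had no 2-fold difference. Melanocyte markers had sums of 422 and 1030, where Mitf (8.04 and 9.73) was higher, Pmel was within 2-fold, and Dct, Tyr and Tyrp1 were under the floor on both arrays. The part of these cell type differences in the differences of the Wnt ligands and receptors was not tested.

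**Figure D4:**
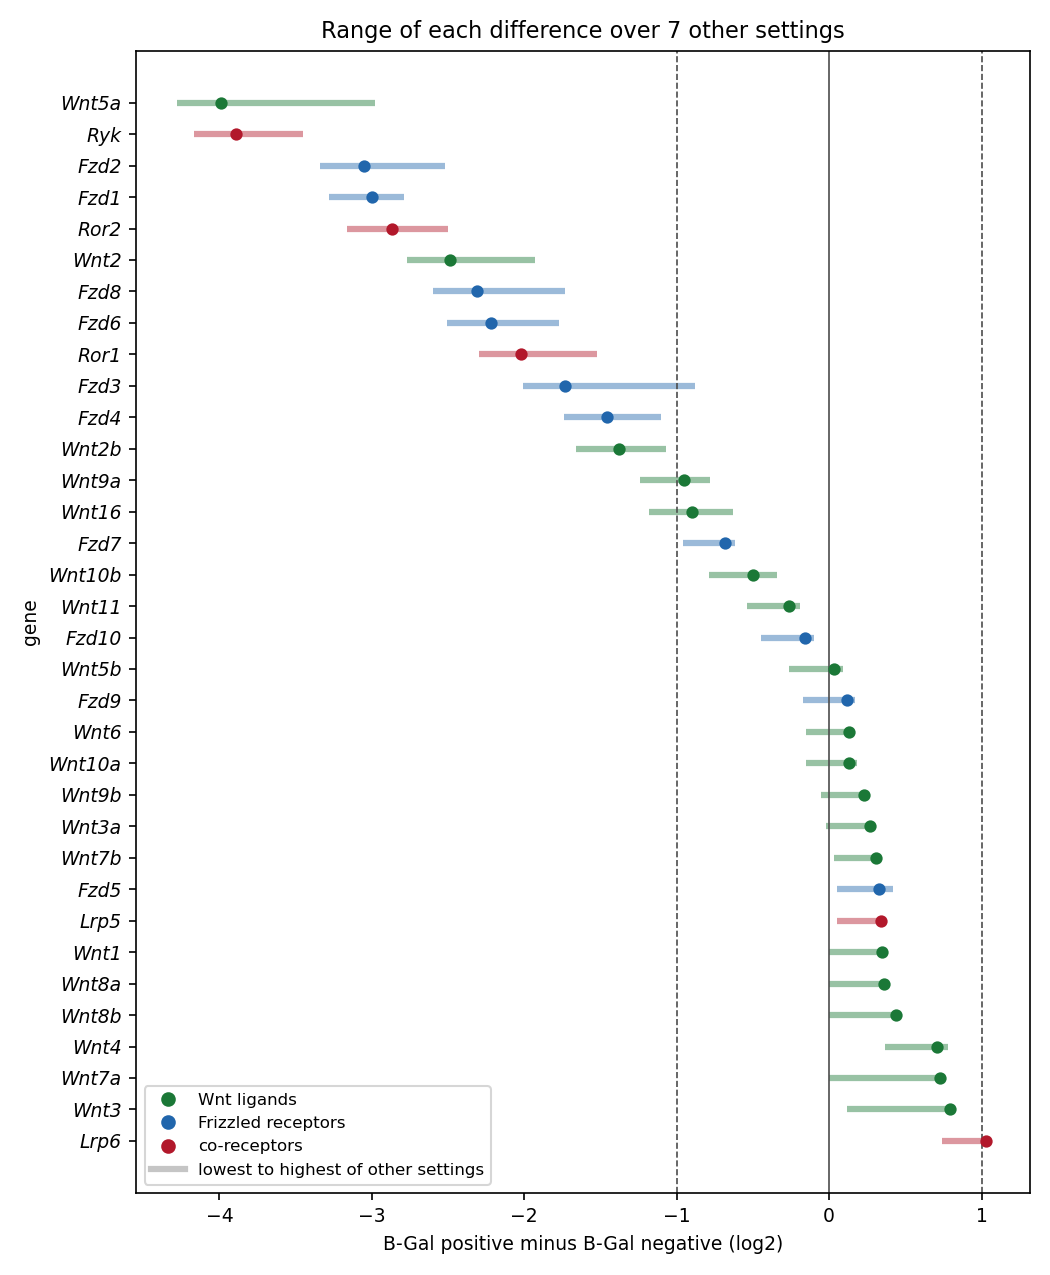
Deposited difference of each of the 34 genes (points, x axis in log2, B-Gal positive minus B-Gal negative) with a bar from the lowest to the highest value over 7 other settings of scaling, low values and probe set choice, 1 of them added after the data were seen. The bars of Wnt5a, Ryk, Fzd2, Fzd1, Ror2, Wnt2, Fzd8, Fzd6, Ror1, Fzd4 and Wnt2b stay left of the 2-fold line at -1, that of Fzd3 reaches -0.88, and that of Lrp6 runs from 0.74 to 1.05.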

How the data were processed

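Total RNA was hybridised to Affymetrix Mouse Gene 1.0 ST arrays, 1 per group, per the labels. The deposited values, 1 for each probe set on each array, were used as log2 expression. That scale was inferred from the values (1.16 to 14.8; array medians 6.18 and 6.16), and folds depend on it. Per the submitters' processing notes the authors used Partek; how probes were summarised and normalised, and the log base, are not given in those notes or the labels.

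Of 28853 probe sets, 21789 name 1 gene, 1621 several, and 5443 were not listed in the annotation; the last 2 kinds were left out. Gene IDs matched a RefSeq table (GRCm38.p6) for 21698, and 0 symbols differed. Where a gene had several probe sets, the one with the highest mean was taken. No p-value was computed. The procedure was tested on simulated data, with shifts larger than the 2-fold threshold in genes of higher signal. That test did not cover genes near the floor or differences near the threshold.

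The alternatives were median centring, loess (span 0.4, 3 iterations), quantile normalization, an offset of 32, other floors or filters, the mean over probe sets, and 1.5-fold and 4-fold thresholds. Centring on smell and pheromone receptors (receptor genes) was added after the data were seen. Members and lists were chosen with earlier results of these data known. All members are named, and of the other lists up to 4 pathway genes that reached 2-fold and 3 markers with the largest differences. Markers under the floor on both arrays are named too, except the neutrophil marker Ly6g and the T cell marker Cd3d. Mmp8 was named after its value was seen. Python 3.11.15, pandas 2.3.3 and statsmodels 0.14.6 were used.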

Additional observations from a re-analysis of the deposited data

How the results depend on the processing

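The count of genes of the family at least 2-fold lower, 12, ran from 9 (both arrays above the floor) to 14 (centring on receptor genes) over the alternatives that kept the 2-fold threshold, and was 15 at 1.5-fold and 9 at 4-fold. The count of higher ones, 1, was 0 after loess, quantile normalization, the offset, centring on receptor genes and at 4-fold, and 3 at 1.5-fold. The family's median of -0.21 was -0.95 over the members with at least 1 array above 6.27, the 99th percentile of receptor genes. That filter leaves fewer genes and favours members that differ, so -0.95 is not read as a larger shift. Other pathway genes at least 2-fold lower, 19, numbered 12 with both arrays above the floor and 12 at 4-fold, which by construction count fewer, and the higher ones, 0, numbered 2 at 1.5-fold. Of 238 single-gene differences recomputed, 224 moved by no more than 0.37 and 14 moved by more. The limit of 0.37 is the SD of the receptor genes' differences. It is a spread across background genes between these arrays and does not measure a replicate spread. Of the genes past 2-fold, 0 changed sign. The median difference of all genes, 0.12, was -0.02 after loess and -0.16 after centring on receptor genes. No paired analysis was possible because each group has 1 array. Of the lower genes, low signal limits Wnt5a, Fzd3 and Fzd8, which were under the floor on the B-Gal positive array. Fzd10, not counted as different, was also under the floor on that array. Among the other lower genes, Wnt2, Wnt2b, Fzd2, Fzd4, Fzd6 and Ror1 were above the floor there but under 6.27. Low signal limits their folds too.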
